A study of Sus scrofa with 11 samples.

Results

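The long-chain acyl-CoA synthetases ACSL1, ACSL3, ACSL4, ACSL5 and ACSL6 and the acyltransferase LPCAT3 were followed in pig liver after irradiation. Members were taken by family name, with LPCAT3 added because it acts on the products of ACSL4. Of these 6 genes, 5 had a row among the 12505 genes of the deposited table and all 5 passed the filter on low values (at least 1 FPKM in at least 2 libraries). ACSL6, best known from brain and erythroid cells, is not analysed here.

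An acyl-CoA synthetase joins a fatty acid to coenzyme A, the step that every long-chain fatty acid passes before it is burned, stored or built into a membrane. The isoforms differ in where they sit in the cell and in which fatty acids they prefer. ACSL1 is the main isoform of liver and adipose tissue and feeds both mitochondrial oxidation and triglyceride synthesis. ACSL4 prefers arachidonic and adrenic acid, and LPCAT3 places such polyunsaturated chains into phospholipids. Their joint product is the substrate of lipid peroxidation in ferroptosis, an iron-dependent form of cell death that the title of the series names.

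The study holds 11 libraries of wild-type pig liver, labelled as hepatocyte. There were 2 control libraries from day 0 and 3 libraries each after hepatic irradiation with 20, 30 and 40 Gy (gray, the unit of absorbed dose), all from day 35. All irradiated libraries are later than the controls, so dose and elapsed time cannot be told apart against control, whereas the doses share 1 day. The sources used here give no age, breed or number of animals. P-values therefore reflect how far these libraries spread, and that spread may be technical. Levels are FPKM, a fragment count corrected for transcript length and for the size of the library, so that different genes can be compared per length.

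The libraries did not fall apart by dose label alone. A pair of libraries was compared by the SD of its log2 ratio across 4806 genes. This SD was 0.130 between 20Gy-3 and 30Gy-3, which carry different doses, 0.137 between 30Gy-1 and 30Gy-2, and 0.305 to 1.01 in the other 53 pairs. 30Gy-1 and 30Gy-2 are counted once in each mean ± SD, so n is 2 at 30 Gy. 40Gy-1 lay closer to 20Gy-2 (SD 0.627) than to 40Gy-2 (0.858) or 40Gy-3 (0.889). All 12 hepatocyte markers had a row and none was at 0 in any library. Markers of macrophages, T cells, endothelium and stellate cells were measured too. The deposited FPKM summed to between 520839 and 949840 per library, and 10236 to 10866 genes reached 1 FPKM.

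ACSL1 was the most abundant ACSL transcript in control liver and was lower in each of the 9 irradiated libraries. The gene (ENSSSCG00000015784, Sscrofa11.1 chromosome 15, 45866858 to 45936327) had 681 and 813 FPKM in the controls. It had 158, 286 and 167 FPKM at 20 Gy, 298, 301 and 169.8 FPKM at 30 Gy, and 148, 22.8 and 22.2 FPKM at 40 Gy. The irradiated and control libraries did not overlap, and 40Gy-2 and 40Gy-3 stood far below all others. Ranked among all genes of the library, ACSL1 was at place 150 and 108 in the controls, between 270 and 398 in the 6 libraries of 20 and 30 Gy, at 384 in 40Gy-1, and at 2487 and 2481 in 40Gy-2 and 40Gy-3.

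Averaged over the doses, ACSL1 fell by 2.53 on the log2(FPKM + 1) scale against control (SE 0.598, limma adjusted p = 0.0406), which is 5.79-fold lower. This call sat at the edge of the threshold. It was lost without replicate 1 or 3 of 20 Gy (adjusted p = 0.0776 and 0.0720), replicate 1, 2 or 3 of 30 Gy (0.0699, 0.0697 and 0.0636), replicate 2 of 40 Gy (0.0578), control-1 (0.211) or control-2 (0.264), while the change itself stayed between -2.83 and -2.25 over all 19 alternatives. At 40 Gy, ACSL1 averaged 64.2 ± 72.3 FPKM, against 747 ± 93.2 FPKM in control (SD, n = 3 and n = 2), and its log2 change was -4.10 (SE 0.699, adjusted p = 0.00874), a fall of 17.1-fold. Without 40Gy-1 the change was -4.99, and the call was lost without control-1 (adjusted p = 0.0613) or control-2 (0.0656).

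At the lower doses the difference in ACSL1 did not pass the threshold. ACSL1 averaged 204 ± 71.5 FPKM at 20 Gy (SD, n = 3), with a log2 change of -1.92 against control (95% confidence interval -3.47 to -0.37, adjusted p = 0.145). At 30 Gy it averaged 235 ± 91.5 FPKM (SD, n = 2), and the fit, which takes all 3 libraries as separate, gave a change of -1.58 (-3.13 to -0.03, adjusted p = 0.293). With the 30 Gy pair averaged the change was -1.72 (SE 0.799, adjusted p = 0.425). Both calls turned on 1 library of another dose, through the spread shared by the fit: without 40Gy-1 the same changes had an adjusted p of 0.00555 at 20 Gy and 0.0162 at 30 Gy. Hepatocyte markers bear on the level of ACSL1 in bulk tissue, where fewer cells of a type and less RNA per cell cannot be told apart. The summed level of the 12 markers was 19400 to 27160 FPKM at 40 Gy, against 43360 to 68220 FPKM in control. At 40 Gy 3 of the 12 fell (ALB, TTR and ASGR1), where 7.39% of all genes were called. ALB alone was 7050 to 10810 FPKM of that sum at 40 Gy, against 27030 to 42550 FPKM in control. The other 9 were not called, with log2 changes from -1.39 (TF) to 0.46 (CYP2E1). CPS1 had 150.5, 587 and 593 FPKM in 40Gy-1, 40Gy-2 and 40Gy-3, against 382 and 381 FPKM in control. TF had 4666, 690 and 729 FPKM in the same libraries, against 5309 and 2280 FPKM in control. At 20 and 30 Gy the sum was 45890 to 57620 FPKM, and none of the 12 was called at either dose. Single markers still differed between these libraries. CYP2E1 had 60.4 to 63.5 FPKM in 20Gy-1, 20Gy-3 and 30Gy-3 and 1091 to 1126 FPKM in 20Gy-2, 30Gy-1 and 30Gy-2, against 1310 and 1092 FPKM in control. G6PC1 went the other way, with 954 to 1009 FPKM and 128 to 135 FPKM in the same libraries, against 372 and 332 FPKM in control. The part of these markers in the result of ACSL1 was not tested.

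ACSL4 moved the other way and was above both controls in all 9 irradiated libraries. The gene (ENSSSCG00000012583, chromosome X, 89760863 to 89838103) had 3.26 and 2.37 FPKM in the controls. It had 27.7, 44.8 and 28.8 FPKM at 20 Gy, 45.6, 49.7 and 31.3 FPKM at 30 Gy, and 28.6, 13.1 and 12.5 FPKM at 40 Gy. The lowest irradiated library, 40Gy-3, still held several times the level of either control, and the highest values came at 30 Gy, not at 40 Gy. Among all genes of the library, ACSL4 held a place between 1254 and 1947 in 7 irradiated libraries and places 3821 and 3802 in 40Gy-2 and 40Gy-3, against 7507 and 8392 in the controls.

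**Figure D1:**
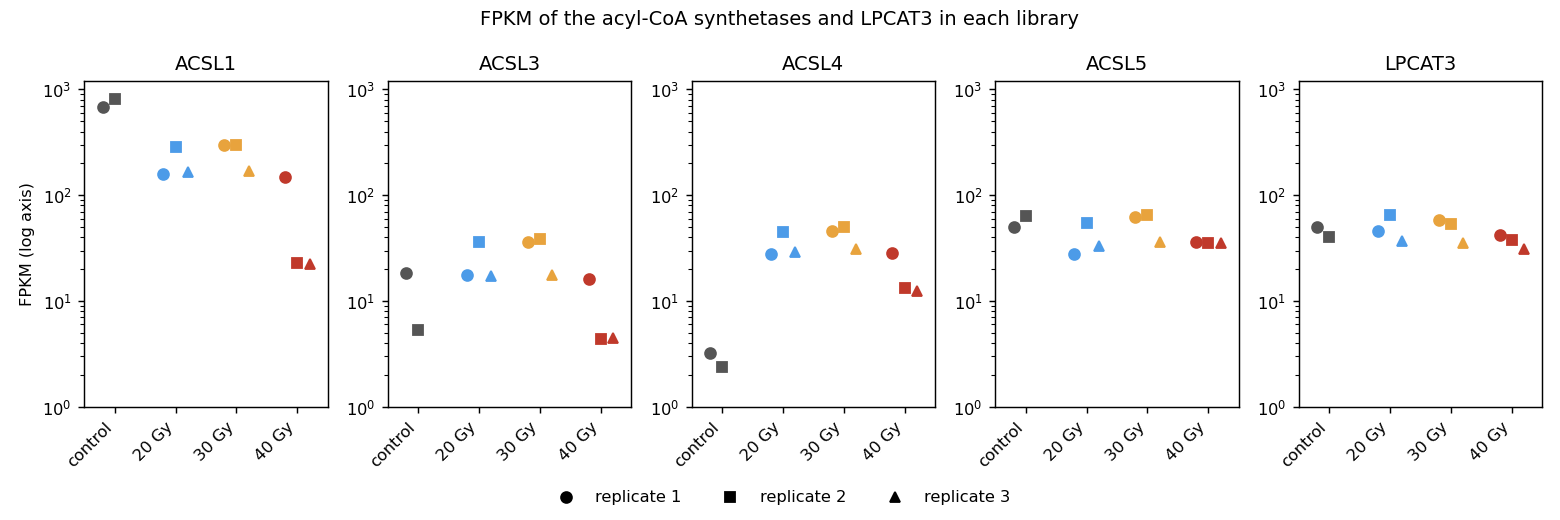
FPKM of each member in each of the 11 libraries, on a log axis, with 1 point per library, colour for the group and marker shape for the replicate number. ACSL1 lies lower and ACSL4 higher in every irradiated library than in the controls, and 40Gy-2 and 40Gy-3 lie below 40Gy-1 for ACSL1, ACSL3 and ACSL4.

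The rise of ACSL4 passed the threshold at each dose. On the log2(FPKM + 1) scale it rose by 3.16 at 20 Gy (SE 0.365, adjusted p = 0.00159), by 3.48 at 30 Gy (SE 0.365, adjusted p = 0.00116) and by 2.23 at 40 Gy (SE 0.365, adjusted p = 0.00723), all against control. These are 8.96-fold, 11.2-fold and 4.70-fold, and they understate the change because the control level is low: with a pseudocount of 0.1 FPKM the mean change over doses was 3.31 in place of 2.96. The mean over doses kept its call in all 19 alternatives, with an adjusted p of at most 0.0377. At 40 Gy the call was lost without control-2 (adjusted p = 0.0629), and with 30Gy-1 and 30Gy-2 averaged and the other near-identical pair dropped it was lost at 30 Gy (0.114) and at 40 Gy (0.0529).

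ACSL4 is also expressed in blood and immune cells, whose markers were measured beside it. Of all genes, 4.71% were called over the doses and 7.39% at 40 Gy. Of 10 macrophage markers tested, 1 (MARCO) rose over the doses, and their summed level was 347 to 1211 FPKM in irradiated libraries, against 685 to 905 FPKM in control. The macrophage sum was 347 to 364 FPKM in replicates 1 and 3 of 20 Gy and replicate 3 of 30 Gy, where ACSL4 was 27.7 to 31.3 FPKM. In replicate 2 of 20 Gy and replicates 1 and 2 of 30 Gy it was 742 to 749 FPKM, where ACSL4 was 44.8 to 49.7 FPKM. The other libraries did not keep this order. The sum was 1211, 524 and 519 FPKM in 40Gy-1, 40Gy-2 and 40Gy-3, with ACSL4 at 28.6, 13.1 and 12.5 FPKM. In control-1 and control-2 it was 905 and 685 FPKM, with ACSL4 at 3.26 and 2.37 FPKM. None of 10 stellate cell markers was called over the doses, but their sum was 127 to 182 FPKM at 20 and 30 Gy and 374 FPKM in 40Gy-1, above both controls (54.5 and 74.5 FPKM), and 51.8 and 42.9 FPKM in 40Gy-2 and 40Gy-3, below both. No T and NK cell marker of 7 was called against control, but CD3E fell in the dose trend (-0.42 per 10 Gy, limma adjusted p = 0.0477). The sum of the 7 was 11.3 and 10.2 FPKM in 40Gy-2 and 40Gy-3 and 18.9 to 36.0 FPKM in the other 7 irradiated libraries. In control it was 13.4 to 15.2 FPKM. ACSL4 was lowest among irradiated libraries in the same 2 libraries, 40Gy-2 and 40Gy-3. None of the 3 neutrophil markers with a row was called over the doses either, but CSF3R and S100A12 rose at 40 Gy. The sum of the 3 was 7.71 to 17.9 FPKM there, against 1.53 to 4.60 FPKM in control. At 20 and 30 Gy it was lower than in control, 0.341 to 1.01 FPKM, with each of the 3 markers under 1 FPKM. Of 9 endothelial markers LYVE1 fell over the doses, and their sum was 99.0 to 227 FPKM in irradiated libraries, below both controls (281 and 327 FPKM). CLEC4G alone was 206 and 263 FPKM of that sum in the controls and 20.5 to 164 FPKM in irradiated libraries. The log2 changes of the 9 over the doses ran from -1.68 (CLEC4G) to 0.53 (EMCN). Of 3 B and plasma cell markers tested JCHAIN rose and CD79A fell over the doses, MZB1 also rose at 40 Gy, and the sum was 71.2 to 109.9 FPKM at 40 Gy, against 41.4 to 45.2 FPKM in control. None of the 2 bile duct and 3 erythroid markers tested was called over the doses. HBB fell at 40 Gy (-3.73, adjusted p = 0.046), with 53.7, 11.7 and 15.0 FPKM, against 820 and 105.5 FPKM in the controls. The part of these cell types in the rise of ACSL4 was not tested.

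The remaining members showed no change that passed the threshold in any of the 5 comparisons. ACSL3 sits on the endoplasmic reticulum and on lipid droplets and favours monounsaturated fatty acids (ENSSSCG00000016223, chromosome 15, 124741986 to 124816955). It had 18.5 and 5.28 FPKM in the controls, 17.7, 36.3 and 17.0 FPKM at 20 Gy, 36.1, 38.7 and 17.6 FPKM at 30 Gy, and 16.2, 4.36 and 4.48 FPKM at 40 Gy. The 2 controls differed more than 3-fold from each other, and the irradiated libraries lay above, between and below them. The log2 change of ACSL3 was 1.07 at 20 Gy (95% confidence interval -0.33 to 2.47, adjusted p = 0.344), 1.44 at 30 Gy (0.05 to 2.84, adjusted p = 0.287) and -0.48 at 40 Gy (-1.87 to 0.92, adjusted p = 0.683). Leaving out a control turned the sign of 2 of its changes: the mean over doses was 0.68 and became -0.14 without control-2, and the change at 40 Gy became 0.34 without control-1.

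ACSL5, an isoform of mitochondria and endoplasmic reticulum linked to triglyceride synthesis (ENSSSCG00000031789, chromosome 14, 122777135 to 122828054), was the steadiest of the synthetases at 40 Gy. It had 50.0 and 63.3 FPKM in the controls, 27.6, 54.4 and 32.7 FPKM at 20 Gy, 61.6, 65.5 and 35.9 FPKM at 30 Gy, and 36.4, 35.1 and 35.3 FPKM at 40 Gy. It was below both controls in 6 of the 9 irradiated libraries and above both in 1. Its log2 change over the doses was -0.45 (95% confidence interval -1.06 to 0.16, adjusted p = 0.402). A pseudogene overlaps this gene in the gene table and could share its reads.

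LPCAT3, the lysophospholipid acyltransferase (ENSSSCG00000027205, chromosome 5, 63707674 to 63746369), had a mean near that of control at 20 and 30 Gy. It had 50.0 and 40.1 FPKM in the controls, 46.3, 64.9 and 37.2 FPKM at 20 Gy, 57.7, 53.8 and 35.5 FPKM at 30 Gy, and 42.4, 38.0 and 31.3 FPKM at 40 Gy. The irradiated libraries lay on both sides of the controls, with 3 above and 4 below both. The log2 change over the doses was -0.02 (95% confidence interval -0.57 to 0.52, adjusted p = 0.971). Its sign turned in 9 of 19 alternatives, in each of which it stayed uncalled. The end of LPCAT3 overlaps EMG1 in the gene table, and reads there may be mixed.

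**Figure D2:**
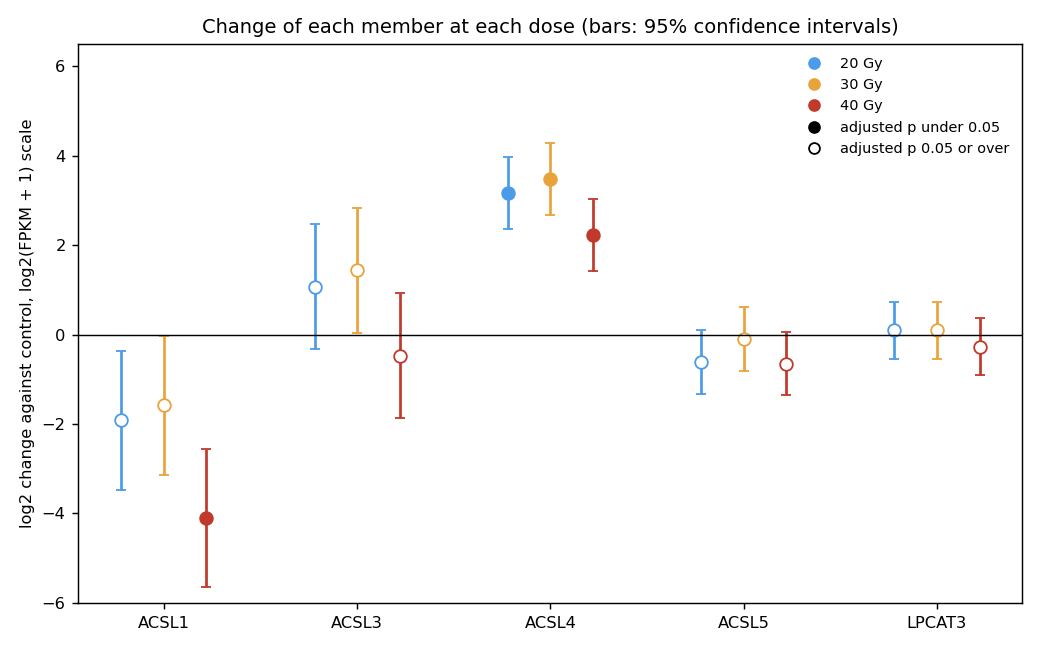
Log2 change of each member against control on the log2(FPKM + 1) scale at 20, 30 and 40 Gy, from limma; bars are 95% confidence intervals and filled points have an adjusted p under 0.05. ACSL4 is filled at all doses (3.16, 3.48 and 2.23), ACSL1 only at 40 Gy (-4.10), and the other members at none.

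Averaged over the doses, 2 of the 5 measured members were called, ACSL1 and ACSL4, where 4.71% of all 11644 genes tested were called. At 20 Gy and at 30 Gy 1 member was called (ACSL4), with 4.23% and 3.03% of all genes called, and at 40 Gy 2 were called, with 7.39% of all genes called. The 3 dose comparisons share the same 2 control libraries. The members were named with earlier results of these libraries known, so these counts are a description.

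Whether ACSL4 takes the place of ACSL1 was read from the levels within each library. ACSL4 was above ACSL1 in 0 of 11 libraries. ACSL1 was 209 and 343 times as abundant as ACSL4 in the controls, 5.70, 6.39 and 5.81 times at 20 Gy, 6.54, 6.05 and 5.43 times at 30 Gy, and 5.16, 1.73 and 1.78 times at 40 Gy. The gap was therefore far smaller than in control at 20 Gy and nearly the same at 30 Gy, and only 40Gy-2 and 40Gy-3 went further. Because 20Gy-3 and 30Gy-3 were near-identical libraries (SD of the log2 ratio 0.13), 20 and 30 Gy are not independent readings of dose. As log2((ACSL4 + 1)/(ACSL1 + 1)) the balance was -7.62 ± 0.418 in control, -2.54 ± 0.096 at 20 Gy, -2.52 ± 0.158 at 30 Gy and -1.29 ± 0.903 at 40 Gy (SD, n = 2, 3, 2 and 3). Averaged over the doses it was 5.49 higher than in control, between 5.20 (quantile normalization) and 5.85 (pseudocount of 0.1) in 17 alternatives, given as a description without a test.

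**Figure D3:**
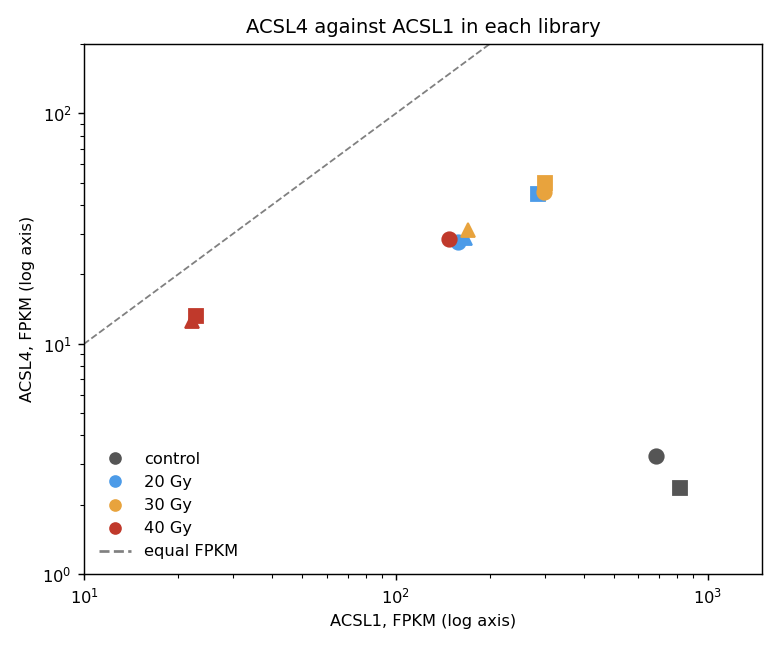
ACSL4 against ACSL1, both in FPKM on log axes, with 1 point per library, colour for the group and marker shape for the replicate number (circle 1, square 2, triangle 3). All points lie below the dashed line of equal FPKM, the controls at the lower right, and several irradiated points of different doses fall beside each other.

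In FPKM, the gain of ACSL4 was small beside the loss of ACSL1. At 20 Gy the mean of ACSL1 differed from control by -543 FPKM and that of ACSL4 by 30.9 FPKM, a gain of 5.69% of the loss. At 30 Gy the gain of ACSL4 was 36.6 FPKM, or 7.14% of the loss of ACSL1, and at 40 Gy 15.3 FPKM, or 2.24%. The summed FPKM of ACSL1, ACSL3, ACSL4 and ACSL5 was 753 and 884 in the controls, 231, 422 and 246 at 20 Gy, 441, 454 and 255 at 30 Gy, and 229, 75.4 and 74.4 at 40 Gy. All 9 irradiated libraries thus had a lower ACSL sum in FPKM than either control.

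The makeup of that sum changed together with its size. ACSL1 was 90.5% and 92.0% of it in the controls, 67.9% to 68.4% at 20 Gy and 66.1% to 67.5% at 30 Gy. At 40 Gy it was 64.6% in 40Gy-1 and 30.2% and 29.8% in 40Gy-2 and 40Gy-3. The share of ACSL4 was 0.432% and 0.268% in the controls, 11.4 ± 0.719% at 20 Gy, 11.5 ± 1.17% at 30 Gy and 15.6 ± 2.68% at 40 Gy (SD, n = 3, 2 and 3). The share of ACSL3 was 7.74 ± 0.833%, 7.63 ± 1.01% and 6.29 ± 0.679% at 20, 30 and 40 Gy. In 40Gy-2 and 40Gy-3 the leading isoform was ACSL5, with 46.5% and 47.4% of the sum, whereas ACSL1 led in the other 9 libraries.

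**Figure D4:**
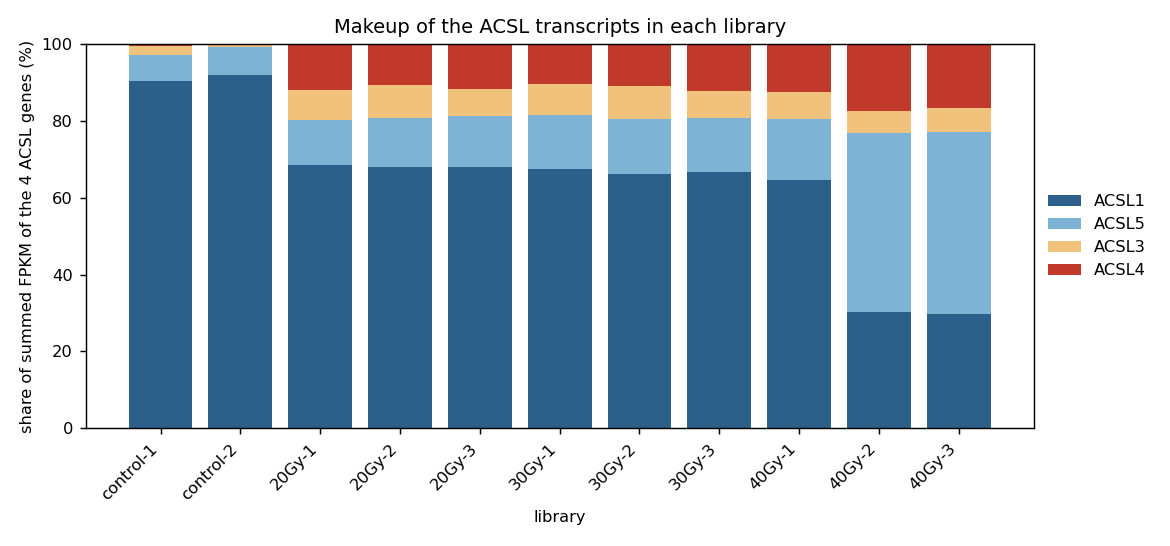
Share of each isoform in the summed FPKM of ACSL1, ACSL3, ACSL4 and ACSL5, with 1 bar per library. ACSL1 is over 90% of the bar in both controls, between 64.6% and 68.4% in 7 irradiated libraries, and 30.2% and 29.8% in 40Gy-2 and 40Gy-3, where ACSL5 leads.

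Within the irradiated libraries no member had a called trend with dose, where limma called 6.5% of 11526 genes. At an unadjusted p under 0.05 there were 2 of 5, ACSL1 and ACSL3, where 30.7% of all genes were. The slope per 10 Gy on the log2 scale was -1.09 for ACSL1 (95% confidence interval -2.0 to -0.18, adjusted p = 0.107), -0.77 for ACSL3 (-1.48 to -0.06, adjusted p = 0.136) and -0.46 for ACSL4 (-0.95 to 0.02, adjusted p = 0.178). It was -0.02 for ACSL5 (-0.41 to 0.36, adjusted p = 0.947) and -0.19 for LPCAT3 (-0.48 to 0.11, adjusted p = 0.361). The slopes of ACSL1 and ACSL4 thus had the same sign, while against control these genes changed in opposite directions. Without 40Gy-1 the slope of ACSL1 was -1.39 and was called (adjusted p = 0.0471).

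The genes whose pattern over the 11 libraries was most like that of a member were taken from 5833 genes with a symbol and a mean of at least 5 FPKM, by Pearson's r of log2(FPKM + 1). These libraries are not independent and fall into separate levels, so r is given as a measure of likeness alone. For ACSL1 they were GPD1 (r = 0.991), the glycerol-3-phosphate dehydrogenase that supplies the backbone of triglycerides, the calcium pump ATP2B2 (0.987), the lipid droplet protein CIDEC (0.984), the folate receptor FOLR2 (0.975) and SEBOX (0.971). For ACSL4 they were the desaturase SCD (0.981), cyclin D1, CCND1 (0.945), the ATP-gated channel P2RX4 (0.945), PLEK2 (0.938) and PGD of the pentose phosphate pathway (0.934). For ACSL3 they were OSTF1 (0.989), SLC16A13 (0.984), CYB5R1 (0.981), FETUB (0.979) and the glycerol-3-phosphate acyltransferase GPAM (0.979). For LPCAT3 they were PGP (0.946), TNFAIP8L1 (0.940), RNF31 (0.931), MAP7D1 (0.929) and PROSER2 (0.917). Over the 9 irradiated libraries alone, r with ACSL1 remained 0.995 for GPD1. There r with ACSL4 was 0.924 for SCD, but lower for CCND1 (0.799), PGD (0.791), P2RX4 (0.763) and PLEK2 (0.726). SLC16A13, PGP, GPD1, CIDEC, PLEK2 and ATP2B2 overlap a neighbour in the gene table, and RNF31 was not matched in it.

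Genes that make acyl-CoA by other routes, or use it, were described by the lists they belong to. Of 17 oxidation genes 7 fell and 0 rose over the doses, with a median log2 change of -0.69, where the median of all genes was 0.01 and 4.71% of them were called in either direction. The lists were chosen with earlier results known, so their counts are a description. The 7 included ACAA2, a mitochondrial thiolase (-4.47, SE 0.628, adjusted p = 0.00409), ACADVL, the very long-chain dehydrogenase, which overlaps DVL2 and DLG4 (-2.08, SE 0.227, adjusted p = 0.00137), and the carnitine carrier SLC25A20 (-1.70, SE 0.309, adjusted p = 0.0145). Of 15 other acyl-CoA synthetases 2 rose, ACSS2, which activates acetate (1.78, SE 0.279, adjusted p = 0.00658) and ACSF2, which overlaps CHAD (1.07, SE 0.167, adjusted p = 0.00642). In that list 1 fell, SLC27A2, a synthetase of very long-chain fatty acids (-1.18, SE 0.16, adjusted p = 0.00353), and the median was 0.15. At 40 Gy alone, where 7.39% of all genes were called, 0 of the 15 rose and 3 fell. Neither ACSS2 (0.41, adjusted p = 0.479) nor ACSF2 (0.25, adjusted p = 0.464) was called there. Without control-1 calls were lost for ACAA2 (adjusted p = 0.0696), SLC25A20 (0.0896), ACSF2 (0.0913) and SLC27A2 (0.0524), and without control-2 for SLC25A20 (0.17), ACSF2 (0.0638) and ACSS2 (0.120). The count of 7 oxidation genes was 2 without control-1, 3 without control-2 and 1 with 30Gy-1 and 30Gy-2 averaged and the other near-identical pair dropped. The count of 3 other synthetases was also lower in these settings, each of which leaves a lone library in a group, and fewer of all genes were called in them. Without 40Gy-1 it was 6, where 12.3% of all genes were called in place of 4.71%. On the TPM scale the call was lost for ACSF2 (adjusted p = 0.062) and SLC25A20 (0.135). The counts were 3 oxidation genes and 2 other synthetases, where 1.72% of all genes were called.

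Over the doses 4.71% of all genes were called in either direction. Enzymes that place acyl chains into lipids were called downward in 3 of 16 and upward in 0 (median -0.03), beside the uncalled LPCAT3. These were AGPAT3 (-2.11, SE 0.359, adjusted p = 0.0102) and LPGAT1 (-1.29, SE 0.168, adjusted p = 0.003), both acyltransferases of phospholipid precursors, and GPAT3 of triglyceride synthesis (-1.68, SE 0.392, adjusted p = 0.0386). GPAT3 was under 1 FPKM in every library of 20 and 30 Gy, but 40Gy-1 (11.4 FPKM) lay above both controls (7.57 and 5.97 FPKM). At 40 Gy GPAT3 was not called (-0.52, adjusted p = 0.521). None of the 11 thioesterases and acyl-CoA binding proteins was called (median -0.13; 2 were called without 40Gy-1). Of 12 genes of fatty acid desaturation, elongation and release, with a median of -0.11, SCD rose (4.46, SE 0.299, adjusted p = 6.75e-05). The elongases ELOVL2, which acts on polyunsaturated chains (-2.61, SE 0.54, adjusted p = 0.0245), and ELOVL6 (-1.68, SE 0.27, adjusted p = 0.00751) fell. ELOVL2 had 5.43 and 33.3 FPKM in the controls and 6.67 FPKM in 40Gy-1, and was not called at 40 Gy (-2.01, adjusted p = 0.0828). Of 12 genes of lipid peroxidation and defence, which share ACSF2 with the synthetases, 1 rose and PRDX6, which overlaps a neighbour, fell (-0.84, SE 0.165, adjusted p = 0.0205), with a median of 0.22. Of 14 regulators 2 rose, the lipogenic factors SREBF1 (1.17, SE 0.226, adjusted p = 0.0191) and MLXIPL (1.53, SE 0.352, adjusted p = 0.0366), with a median of 0.01. Calls were lost without control-1 for AGPAT3 (adjusted p = 0.0696), GPAT3 (0.279), ELOVL6 (0.056), PRDX6 (0.167) and SREBF1 (0.139), and without control-2 for AGPAT3 (0.146), GPAT3 (0.206), LPGAT1 (0.0507), ELOVL2 (0.258), ELOVL6 (0.120), PRDX6 (0.119), SREBF1 (0.169) and MLXIPL (0.363). GPAT3 was also lost without any 1 library of 20 or 30 Gy or without replicate 2 of 40 Gy (adjusted p = 0.0518 to 0.0746). MLXIPL was also lost without replicate 1 or 2 of 20 Gy, any 1 library of 30 Gy or replicate 2 of 40 Gy (0.0567 to 0.0716), and PRDX6 without replicate 1 or 2 of 30 Gy (0.0516 and 0.0511). On the TPM scale calls were lost for GPAT3 (0.173), LPGAT1 (0.0937), ELOVL2 (0.0891), PRDX6 (0.191) and MLXIPL (0.0781), and with quantile normalization for PRDX6 (0.0768). Averaging 30Gy-1 and 30Gy-2 lost the calls of GPAT3 (0.0692) and MLXIPL (0.0686). Leaving out 20Gy-3 and 30Gy-3 lost those of GPAT3 (0.106), ELOVL2 (0.0682) and MLXIPL (0.0613). Both changes together leave a lone library at 30 Gy. Calls were then lost for AGPAT3 (log2 change -1.90), LPGAT1 (-1.33), GPAT3 (-1.64), ELOVL2 (-2.64), PRDX6 (-0.88), SREBF1 (1.26) and MLXIPL (1.60). Without 40Gy-1 the counts were 5 acyltransferases and 6 genes of desaturation, elongation and release, but the share of all genes called also rose, to 12.3%.

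In the dose trend 11 of the 96 list genes tested were called (11.5%), where 6.5% of all genes were, and 10 of the 11 fell with dose, where 379 of the 749 called among all genes did. This is a description of lists chosen with earlier results known. These were ACSS2, AACS, ACSM5 and SLC27A5 of the 15 other synthetases, DGAT2 of the 16 acyltransferases, ACOT12 and ACOT13 of the 11 thioesterases and binding proteins, ACADL and HSD17B4 of the 17 oxidation genes, and ELOVL6 of the 12 desaturation and elongation genes. Their slopes ran from -1.70 per 10 Gy for DGAT2 (adjusted p = 0.0408) to -0.51 for HSD17B4 (adjusted p = 0.0477). NCOA4, the receptor that delivers ferritin for breakdown, rose by 0.54 per 10 Gy (adjusted p = 0.037). NCOA4 and ACOT13 overlap a protein-coding gene, ACOT12 and ELOVL6 a lncRNA, and GPAT3 a pseudogene. No regulator was called. Every one of these 11 calls was lost when any 1 of 6 libraries was left out, namely replicates 1 and 3 of 20 Gy, 1 and 2 of 30 Gy, and 2 and 3 of 40 Gy, with an adjusted p of at most 0.174 over the alternatives.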

How the data were processed

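The authors deposited 1 table of FPKM with 1 column per library, per the file headers. HISAT2, Cufflinks and HTSeq and the builds Sscrofa11.1 and mm10 are named without a role in the submitters' processing notes; no source used here says whether strand was used in counting. Symbols were matched for 10561 of 12505 gene IDs. Coordinates were matched by symbol to a Sscrofa11.1 gene table and give the whole gene. No step of whole reads was found in the low values (at most 0.66% of low genes shared 1 ratio between libraries), so the depth is unknown and no counting interval is given.

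Values were analysed as log2(FPKM + 1) with limma 3.58.1 in R 4.3.3, with 4 group means over all 11 libraries (7 residual degrees of freedom), moderated variances with a mean trend and two-sided tests. P-values were adjusted by Benjamini and Hochberg over all genes tested and called under 0.05. For the dose trend, filter and fit used the 9 irradiated libraries only. The alternatives were another pseudocount (0.1), no filter, rescaling to 1000000 per library (TPM scale), quantile normalization, the replicate number as a block, averaging or leaving out near-identical libraries, and leaving out each library.

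The members, lists and tests were chosen with earlier results of these data known. Named genes were the members, the 5 genes most like ACSL1, ACSL3, ACSL4 and LPCAT3 each, and up to 3 risers and 3 fallers per list over the doses, with any list gene called in the dose trend.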

Additional observations from a re-analysis of the deposited data

How the results depend on the processing

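The count of 2 members called over the doses was 1 on the TPM scale, with quantile normalization, with the replicate block, with 30Gy-1 and 30Gy-2 averaged, with the near-identical pair of 20 and 30 Gy dropped, and under the last 2 changes together, because ACSL1 lost its call (adjusted p = 0.158, 0.0825, 0.0756, 0.0688, 0.107 and 0.236 in the same order). Under these 2 together the counts at 30 Gy and at 40 Gy were 0. With 1 library left out at a time, the counts ranged from 1 to 2 over the doses, 1 to 2 at 20 Gy, 1 to 2 at 30 Gy, 0 to 2 at 40 Gy and 0 to 1 in the dose trend. A lone sample left in a group is assumed to vary like the other groups. The replicate numbers did not pair the libraries throughout: 6 of 15 same-numbered pairs had deviations correlated over 0.1 (-0.62 to 0.65), and 5 of 11 libraries were closest to their own number. Deviations within such small groups offset each other, so this check cannot tell whether some same-numbered libraries are paired. The replicate block changed no other call of a member. With it the list genes GPAT3 (adjusted p = 0.0616) and ELOVL2 (0.0618) lost their call over the doses, and limma called 0 genes in the dose trend with it, against 3560 at an unadjusted p under 0.05 (lowest adjusted p = 0.0665). The TPM scale moved the median of all genes by 0.13 over the doses and 0.21 at 20 Gy, and it gave 207 called genes in place of 548 over the doses, 234 in place of 492 at 20 Gy, 159 in place of 353 at 30 Gy, 381 in place of 861 at 40 Gy and 52 in place of 749 in the dose trend. The share of higher genes among those called was 59.9% on it in place of 39.6% over the doses, 66.2% in place of 48% at 20 Gy, 54.7% in place of 43.6% at 30 Gy, 64.8% in place of 40.4% at 40 Gy and 25% in place of 49.4% in the dose trend. On that scale LPCAT3 over the doses (0.13) and ACSL5 at 30 Gy changed sign while staying uncalled. Over all alternatives the share of genes called ran from 0.368% to 12.3% over the doses and from 0% to 19.9% in the dose trend, highest without 40Gy-1 in both. The 11 list genes called in the dose trend each lost the call in 11 or 12 of 17 alternatives. With depth unknown, the low control level of ACSL4 limits how exactly its fold change is known, and 2 control libraries limit every comparison against control.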

Other observations

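Replicate 2 of 20 Gy and replicates 1 and 2 of 30 Gy were above the other 6 irradiated libraries for each of the 5 members, although they carry different doses. 40Gy-1 was close to replicates 1 and 3 of 20 Gy and replicate 3 of 30 Gy for ACSL1 (148 FPKM, against 158, 167 and 169.8), ACSL3 (16.2, against 17.7, 17.0 and 17.6) and ACSL4 (28.6, against 27.7, 28.8 and 31.3). It differed from them in other transcripts, with a summed macrophage marker level of 1211 FPKM, against 347, 359 and 364, and a stellate cell marker level of 374 FPKM, against 153, 132 and 127. Nothing in the labels ties these libraries to shared animals or preparations.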
